A study of Oncorhynchus kisutch with 221 samples.

Results

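Body length among juvenile coho salmon that were about to leave the river was set against gene expression in their white muscle. The members were all 48 fish whose season label is Smolt_River, of 221 fish in the series, and they were chosen by that label alone. For each probe the change in its value per cm of fork length, the length from the snout to the fork of the tail, was estimated among fish of the same river, year and origin. Each of the 6 combinations of these labels is called a set.

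The series measured single fish of 6 life stages on 2-colour arrays. RNA of 1 fish carried one Alexa dye, and a pool of the muscle RNA of all fish carried the other, so each value is a log2 ratio, most likely of the fish over the pool. Neither the log base nor the direction is stated in the sources used here. The 28 hatchery smolts came from the Puntledge (9 fish), Chehalis (10 fish) and Capilano (9 fish) areas, all in 2009. The 20 wild smolts came from Capilano in 2009 (6 fish), Salmon in 2009 (6 fish) and Chilliwack in 2008 (8 fish). The ocean fish whose slopes were set beside them were 61 of summer and 74 of fall, from sets of more than 1 fish. Those of 2008 were all wild, and those of 2009 were hatchery and wild fish. Their area labels (NM_SoG, south_SoG and WCVI) name parts of the sea, and their rivers are not labelled. The labels give no age for these fish, and they name no treatment or genetic change. Because the pool holds RNA of these same smolts, a ratio of 0 stands for the level of the pool and not for that of another population.

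White muscle makes up most of the trunk of a salmon and powers bursts of swimming. It grows both by adding fibres and by enlarging those present, under the growth hormone and insulin-like growth factor axis. In coho salmon larger juveniles are more likely to complete the change from river form to sea-ready smolt, and size at this step is known to go with survival at sea.

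The deposited table held 43636 probes. Of its cells for the smolts 46.2% were empty, with 29.998% in the fullest array and 59.3% in the emptiest. Tests were run on the 18880 probes that had values for 50% or more of the smolts in each set. None of the probe identifiers was found in the gene table used here, and the files do not pair them with genes. Probes therefore carry their array identifiers as names. For the same reason the labelled tissue was not checked against marker genes. Array medians lay between -0.0080 and 0.013. Among the 1128 pairs of smolt arrays the correlation ran from -0.36 to 0.76, and 7 pairs lay below -0.3. All fish carried the same dye, per the labels, so the direction was kept. In the Puntledge set 3 smolts, on 2 slides that held none of the other 6, scored between 45.7 and 49.0 on the first component of the variation within sets, and the other 6 between -32.2 and -17.1. The 3 were 11.9 to 12.9 cm long and the other 6 were 12.1 to 15.7 cm. Other sets were split on the first component too. In Salmon the 9.8 and 11.7 cm smolts scored 44.9 and 28.8, and the others -20.3 to -15.7. The high ones shared a slide with some of the 3 Puntledge smolts. Capilano hatchery smolts scored at least 22.1 or at most -6.25. In Chehalis the 10.7 cm and an 11.6 cm smolt scored -36.8 and -37.3, and the others 1.97 to 18.5. Fits without the 3 Puntledge smolts kept these fish.

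Fork length averaged 12.0 cm ± 1.00 (SD, n = 28) in hatchery smolts and 10.3 cm ± 1.20 (SD, n = 20) in wild smolts. Puntledge smolts were the longest, at 12.9 cm ± 1.14 (SD, n = 9), followed by Chehalis at 11.7 cm ± 0.495 (SD, n = 10) and Capilano hatchery smolts at 11.4 cm ± 0.625 (SD, n = 9). Wild smolts averaged 9.75 cm ± 1.25 (SD, n = 6) in Capilano, 10.8 cm ± 1.24 (SD, n = 6) in Salmon and 10.2 cm ± 1.11 (SD, n = 8) in Chilliwack. The hatchery sets lay above the wild ones in mean length, while their ranges overlapped. Sets took up 55.5% of the sum of squares of length, and the SD within sets was 0.975 cm. Single fish carried much of the rest. The longest smolt, at 15.7 cm in Puntledge, held 19.6% of the sum of squares within sets, and the shortest, at 7.4 cm among the wild fish of Capilano, held 13.8%. Body mass averaged 19.4 g ± 6.16 (SD, n = 28) in hatchery smolts and 11.2 g ± 3.39 (SD, n = 20) in wild smolts.

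**Figure D1:**
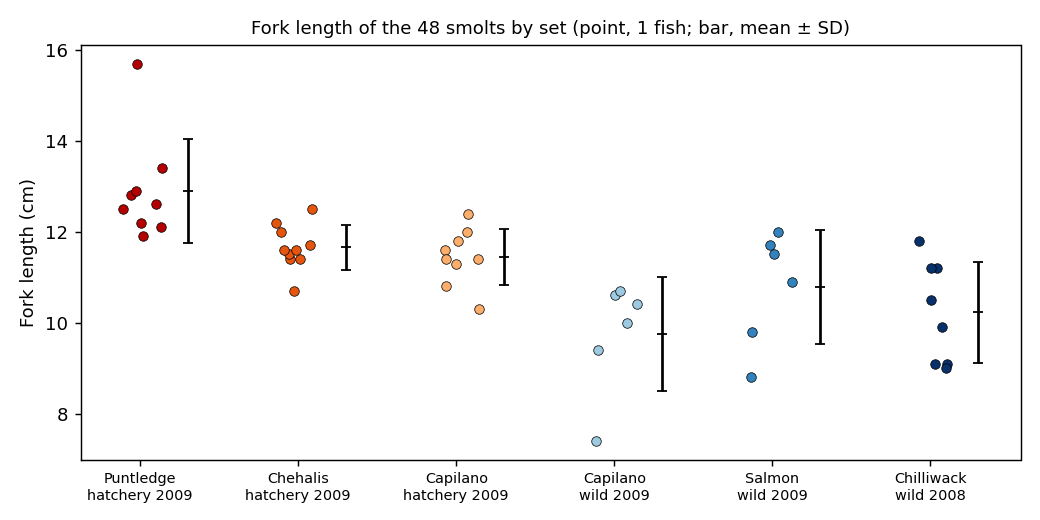
Fork length in cm of each of the 48 smolts (points) by set, hatchery sets on the left and wild sets on the right, with the mean and SD of each set beside its points. The longest smolt, at 15.7 cm, and the shortest, at 7.4 cm, stand apart from the rest of their sets.

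Length within sets was not related to any probe at the threshold. In limma, with set as a factor, 0 of 18880 probes (0%) passed an adjusted p of 0.05, and the smallest adjusted p was 1.00. At an unadjusted p under 0.05 there were 586 probes, or 3.1%, with 263 rising and 323 falling with length. The slopes over all probes ran from -0.72 to 0.44 log2 per cm around a median of -0.0044. Length took up a median of 0.940% of a probe's sum of squares within sets. Sets themselves took up a median of 22.1% of the whole. Set has more terms than length, and the share each would take by chance was not removed, so these shares are not on 1 scale. In whole muscle, fewer cells of a type and less RNA per cell cannot be told apart. Without the 3 Puntledge smolts that stood apart limma called 0 probes, and 630 lay at an unadjusted p under 0.05.

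The count of 0 came with a limit on size. The median SE of a slope was 0.061 log2 per cm. This fit took fish on the same slide as independent, and 14 of 21 slides with smolts held more than 1. With slide as a random block, at a correlation of 0.258 within slides, 0 probes passed in limma. There 870 lay at an unadjusted p under 0.05. The 95% interval of the slope lay wholly within 0.2 log2 per cm of 0 for 68.4% of probes, within 0.3 for 90.9% and within 0.5 for 98.2%. Slopes beyond 0.5 log2 per cm were thus outside the interval of nearly every probe. With these 48 arrays slopes of about 0.1 log2 per cm, and larger ones, could go uncalled. Slopes of 0.27 for probe C070R068 and 0.31 for probe C050R150 did not pass in this fit.

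Of probes with at least 40 values, the one with the smallest p among those that rose was C070R068, which did not pass. Its values, from the lowest through the median to the highest fish, were -0.79, -0.27 and 0.66 in Puntledge, -0.97, -0.27 and 0.14 in Chehalis, and -1.44, -0.17 and 0.29 in Capilano hatchery smolts. Among wild smolts they were -0.41, 0.14 and 0.97 in Capilano, -1.44, -0.77 and -0.38 in Salmon, and -1.69, 0.21 and 0.43 in Chilliwack. The sets overlapped, and the slope was above 0 in 5 of the 6 sets and below 0 in Chehalis. The probe was chosen by its p over these same fish, so the signs of the sets are a description. The slope was 0.27 log2 per cm (SE 0.068, 95% interval 0.13 to 0.40, n = 48), with a limma adjusted p of 1.00.

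Among probes with at least 40 values that fell with length, C105R105 had the smallest p and did not pass either. Its values were -0.77, -0.42 and 0.18 in Puntledge, -0.99, -0.0048 and 0.31 in Chehalis, and -0.52, 0.12 and 1.14 in Capilano hatchery smolts, again as lowest, median and highest. In wild smolts they were -0.87, -0.45 and 0.35 in Capilano, -0.020, 0.32 and 0.49 in Salmon, and -0.65, -0.14 and 0.29 in Chilliwack. The slope was below 0 in all 6 sets, with single fish against it, such as the 11.5 cm smolt of Salmon, which had the highest value of its set. C105R105 too was chosen by its p over these same fish, so these signs are a description. The slope was -0.20 log2 per cm (SE 0.052, 95% interval -0.31 to -0.097, n = 47), with a limma adjusted p of 1.00.

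A single probe passed when slide was a fixed block in a fit over all fish of the series. C050R150 then had a slope of 0.35 log2 per cm in smolts (SE 0.067, limma adjusted p = 0.0121). In the fit of smolts alone, without the block, the slope was 0.31 (SE 0.088, unadjusted p = 0.00102, limma adjusted p = 1.00, n = 45). These fits differ in their fish as well as in the block. A fit of smolts with summer and fall fish, also without the block, had an SE of 0.072 (limma adjusted p = 0.506). The part of the block in the call was not tested. Set by set, the slope of C050R150 was above 0 in 5 of the 6 sets and below 0 in Salmon. It was chosen from a fit that held these same fish, so the signs are a description. In Puntledge the longest smolt had the highest value, 2.18, and the other 8 fish lay between -0.68 and 0.57. How far the slope of C050R150 rests on that fish was not tested.

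The picture was different when the sets were pooled and length was the only term. The question then mixes river, year and origin with length, since hatchery sets were also the longer ones, and these cannot be told apart in that fit. Of 18880 probes 1073 (5.68%) passed in limma, 548 rising and 525 falling with length. With origin as the only covariate 0 passed, with 1314 at an unadjusted p under 0.05, and with area as the only covariate 0 passed, with 1245. With set as a random block, at a correlation of 0.115 within sets, 0 passed, with 1946. Differences between sets at a given length passed in limma's moderated F-test at 2375 probes (12.6%). Control spots moved with length in the pooled fit too: 9 of 15 control rows passed there, 0 passed with set as a factor, where 1 had an unadjusted p under 0.05, and their part in the pooled count was not tested.

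The pooled count also rested on particular fish. Without the Puntledge set 0 probes passed in limma, and 2568 lay at an unadjusted p under 0.05. Without Chilliwack 10 passed and without the wild smolts of Capilano 97, whereas without Salmon 1627 passed. With slide as a random block 106 passed, and without the 3 Puntledge smolts that stood apart 807 did. Leaving out a single smolt gave 549 without the 9.4 cm and 608 without the 7.4 cm wild smolt of Capilano. It gave 640 without the 9.0 cm and 655 without 1 of the 9.1 cm smolts of Chilliwack. The count was 629 without the 13.4 cm smolt of Puntledge and 2131 without the 8.8 cm smolt of Salmon.

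Among called probes with at least 40 values, C196R045 had the largest pooled slope of those that rose. Its values, as lowest, median and highest, were -3.84, -0.62 and 2.80 in Puntledge, -3.89, -2.51 and 1.14 in Chehalis, and -3.10, -0.79 and 2.02 in Capilano hatchery smolts. In wild smolts they were -4.40, -3.74 and -0.40 in Capilano, -4.74, -0.93 and 0.29 in Salmon, and -4.57, -4.16 and -3.09 in Chilliwack. Values above 0 were found in 10 of 28 hatchery smolts and 1 of 20 wild smolts, and the ranges overlapped. The pooled slope was 0.66 log2 per cm (SE 0.18, limma adjusted p = 0.0269). With set as a factor it was 0.26 (SE 0.25, 95% interval -0.25 to 0.77, limma adjusted p = 1.00). The pooled call was lost without the 13.4 cm Puntledge smolt, at an adjusted p of 0.0631 in limma. The next probe, C124R053, had a pooled slope of 0.66 (SE 0.16, limma adjusted p = 0.0164) and 0.22 (SE 0.22) with set as a factor.

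Among called probes with at least 40 values, C104R036 had the largest negative pooled slope. It was low in every hatchery set, at -3.75, -2.96 and -0.39 in Puntledge, -4.58, -3.95 and -1.99 in Chehalis, and -4.42, -4.07 and -2.89 in Capilano hatchery smolts. Wild smolts spread much further, with -4.60, -1.38 and 4.94 in Capilano, -3.20, -2.79 and 2.75 in Salmon, and -3.90, 1.99 and 4.54 in Chilliwack. No hatchery smolt of 28 lay above 0, and 8 of 20 wild smolts did. The pooled slope was -0.81 log2 per cm (SE 0.25, limma adjusted p = 0.0473), and with set as a factor it was -0.38 (SE 0.33, 95% interval -1.05 to 0.28, limma adjusted p = 1.00). This call was close to the threshold and was lost in 26 of the 48 fits that left out a smolt, with a highest adjusted p of 0.150. C155R084 was above 0 in 0 of 26 hatchery smolts and 4 of 17 wild smolts. Its pooled slope was -0.65 (SE 0.17, limma adjusted p = 0.0231), lost without the 7.4 cm smolt at an adjusted p of 0.124, and -0.56 (SE 0.26, unadjusted p = 0.038, limma adjusted p = 1.00) with set as a factor.

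**Figure D2:**
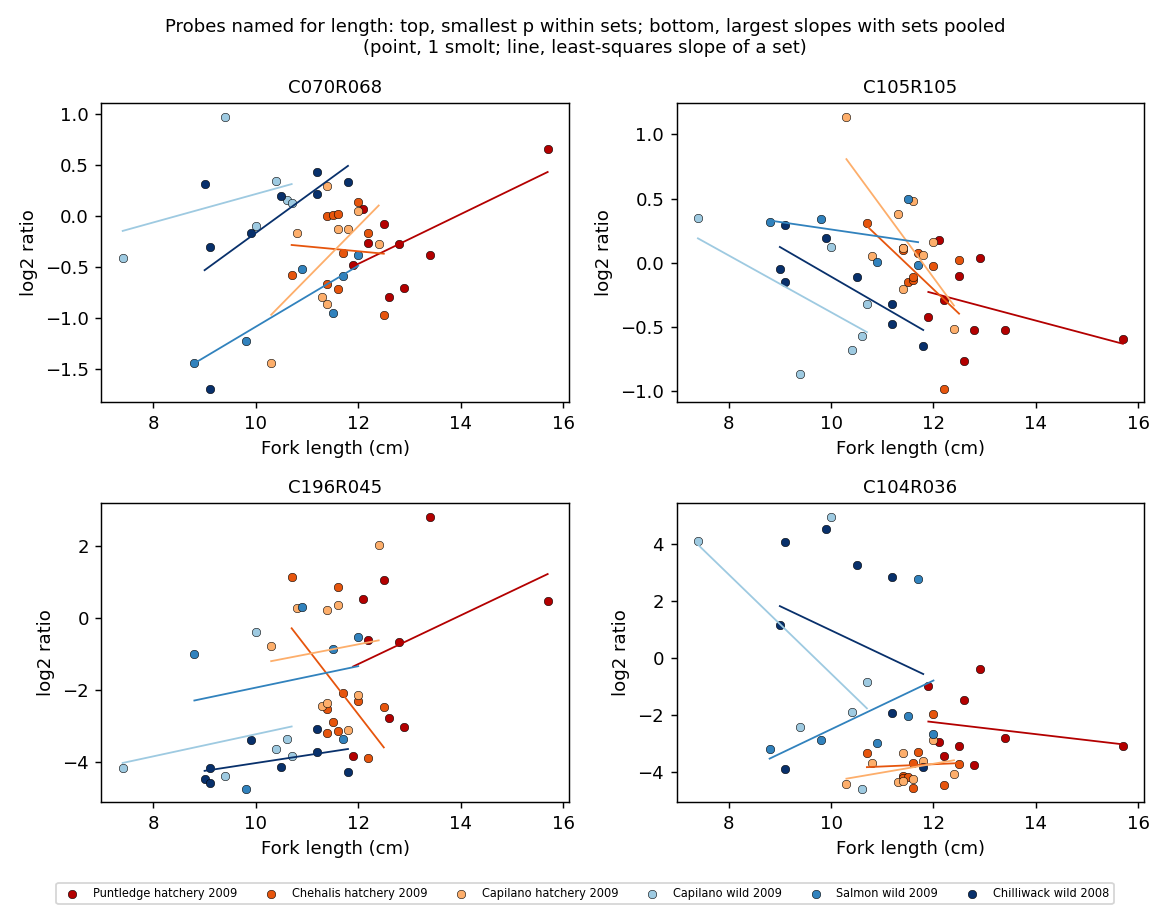
Log2 ratio (vertical) against fork length in cm (horizontal) of each smolt, coloured by set, with a least-squares line for each set. Of probes with at least 40 values, C070R068 and C105R105 had the smallest p within sets. C196R045 and C104R036 had the largest slopes among those called with sets pooled. The lower panels show fish of a set spread over several log2 units at nearly the same length, and C104R036 above 0 in 8 of 20 wild smolts and in no hatchery smolt.

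Whether probes that follow the mean length of a set also follow length inside it was read from lists. The 548 probes that rose with length in the pooled fit had a median slope of 0.070 log2 per cm within sets, and 94.5% were above 0. The 525 that fell had a median of -0.053, and 11.0% were above 0. Over all tested probes the median was -0.0044 and 46.6% were above 0. Pooled slopes contain the differences within sets, so this likeness is in part built in. The mean lengths of the 6 sets share no such part. With set as a random block, the slope on set mean length passed in limma at 1701 of 18880 probes (9.01%), 843 rising and 858 falling, with 5325 at an unadjusted p under 0.05. It rests on 6 set means, each shared by all fish of its set while the fit counts 48 fish, and length cannot be told apart there from area, year and origin. Lists were taken by t from the fit of the same slope without the block, so their medians between sets are large by selection. The 500 probes with the highest t for the slope on set mean length rose by a median of 0.27 log2 per cm between sets, against 0.0050 within sets, with 53.8% above 0. The 500 with the lowest t changed by a median of -0.34 between sets, against -0.0046 within sets, with 46.6% above 0. The within-set medians of these lists were near that of all probes.

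A difference between the slope on set mean length and the slope within sets was tested in 1 fit with set as a random block. It passed in limma at 1 of 18880 probes (0.0053%), with 3497 at an unadjusted p under 0.05. That probe, C227R080, rose between sets and fell within them. Its values, as lowest, median and highest, were 0.12, 0.58 and 0.76 in Puntledge, -0.077, 0.13 and 0.58 in Chehalis, and -0.18, 0.30 and 0.64 in Capilano hatchery smolts. In wild smolts they were -0.44, -0.25 and 0.17 in Capilano, -0.17, 0.22 and 0.61 in Salmon, and -0.57, -0.32 and 0.013 in Chilliwack. The highest levels lay in the longest set and the lowest in Chilliwack, with overlap between sets. The slope on set mean length was 0.25 log2 per cm (SE 0.045) and the slope within sets was -0.087 (SE 0.038). Their difference was 0.34 (SE 0.059, limma adjusted p = 0.0122, n = 48), and it rests on 6 set means. This test and the slope on set mean length were added after the pooled count was seen.

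**Figure D3:**
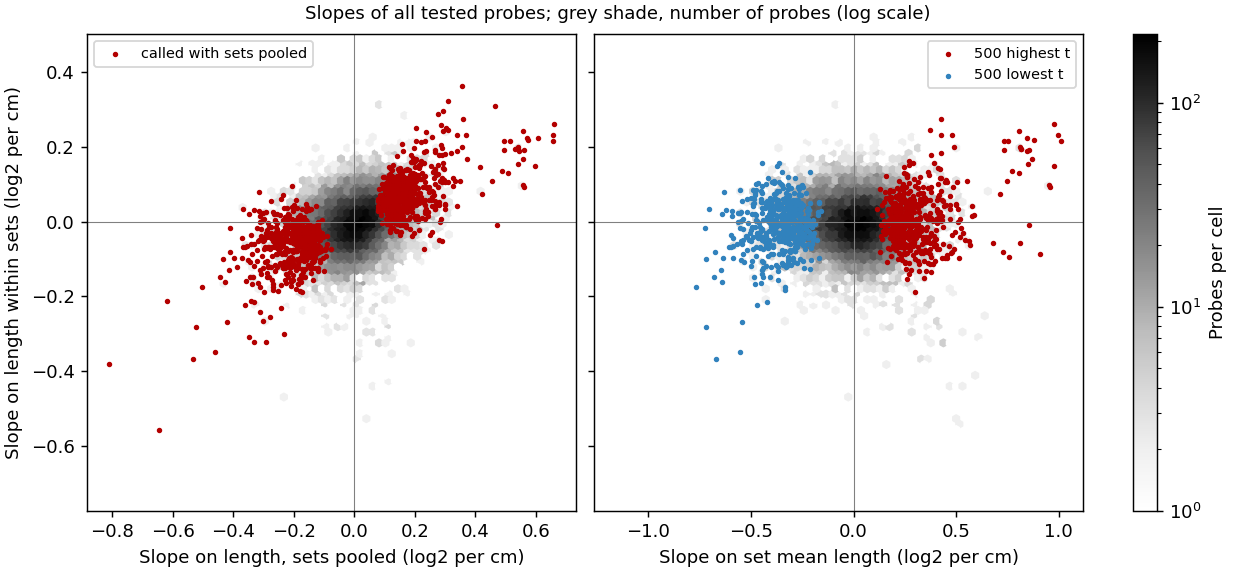
Slope within sets (vertical, log2 per cm) of the tested probes against the slope with sets pooled (left) and against the slope on set mean length (right); grey shade is the number of probes on a log scale. Red points on the left are the 1073 probes called with sets pooled, and they lie along a tilted cloud; on the right the 500 highest and 500 lowest probes lie around 0 within sets.

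Hatchery and wild smolts were compared in their slopes within sets. Of 18880 probes 0 (0%) passed in limma on the difference of slopes, hatchery minus wild; 485 had an unadjusted p under 0.05, and a smallest adjusted p of 0.270. Slopes of hatchery and of wild smolts went together weakly over probes, with a Spearman's rho of 0.057 over 18880 probes. Probes share the fish, so no p is given. Of probes with at least 40 values, C184R150 had the smallest p among positive differences. Its slope was 0.46 log2 per cm (SE 0.12) in hatchery smolts and -0.075 (SE 0.070) in wild smolts. The difference was 0.54 (SE 0.14, 95% interval 0.26 to 0.82, limma adjusted p = 1.00). C080R034 had the smallest p among negative ones, with -0.56 (SE 0.093) in hatchery smolts and 0.023 (SE 0.076) in wild smolts. That difference was -0.59 (SE 0.12, 95% interval -0.83 to -0.34, limma adjusted p = 0.270) and lay with 1 fish, as described next.

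Slopes that differ among the 6 sets were found at 4 of 18880 probes (0.0212%) in limma's moderated F-test, with 655 at an unadjusted p under 0.05. Each of these 4 calls was lost when 1 particular smolt was left out. C093R108 was at 5.73 in the shortest smolt, at 7.4 cm among the wild fish of Capilano, and between -1.01 and 0.61 in the other 44 smolts with a value. Its F was 14.4 (limma adjusted p = 0.000684) with that fish and 0.28 without it, at an adjusted p of 1.00. C080R034 was at -2.85 in the longest smolt, at 15.7 cm in Puntledge, and between -0.41 and 0.78 in the other 46. Its F was 13.003 (limma adjusted p = 0.00106) with that fish and 0.36 without it, at an adjusted p of 1.00.

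The 2 remaining calls lay in the Salmon set, where only 3 of 6 smolts had a value. C208R068 was at 3.51 in the 12.0 cm smolt and between -1.45 and 1.04 in the other 39 smolts with a value. Its F was 10.9 (limma adjusted p = 0.0155) with that fish and 1.69 without it, at an adjusted p of 1.00. Leaving out the 8.8 cm smolt of that set also ended its call, at an F of 6.29 and an adjusted p of 0.443. C102R023 was named after its values were seen, since it had 39 values and the rule for named probes asks for 40. It was at -4.55 in the 9.8 cm smolt and between -0.78 and 0.79 in the other 38. Its F was 23.4 (limma adjusted p = 1.8e-05) with that fish and 1.51 without it, at an adjusted p of 1.00.

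**Figure D4:**
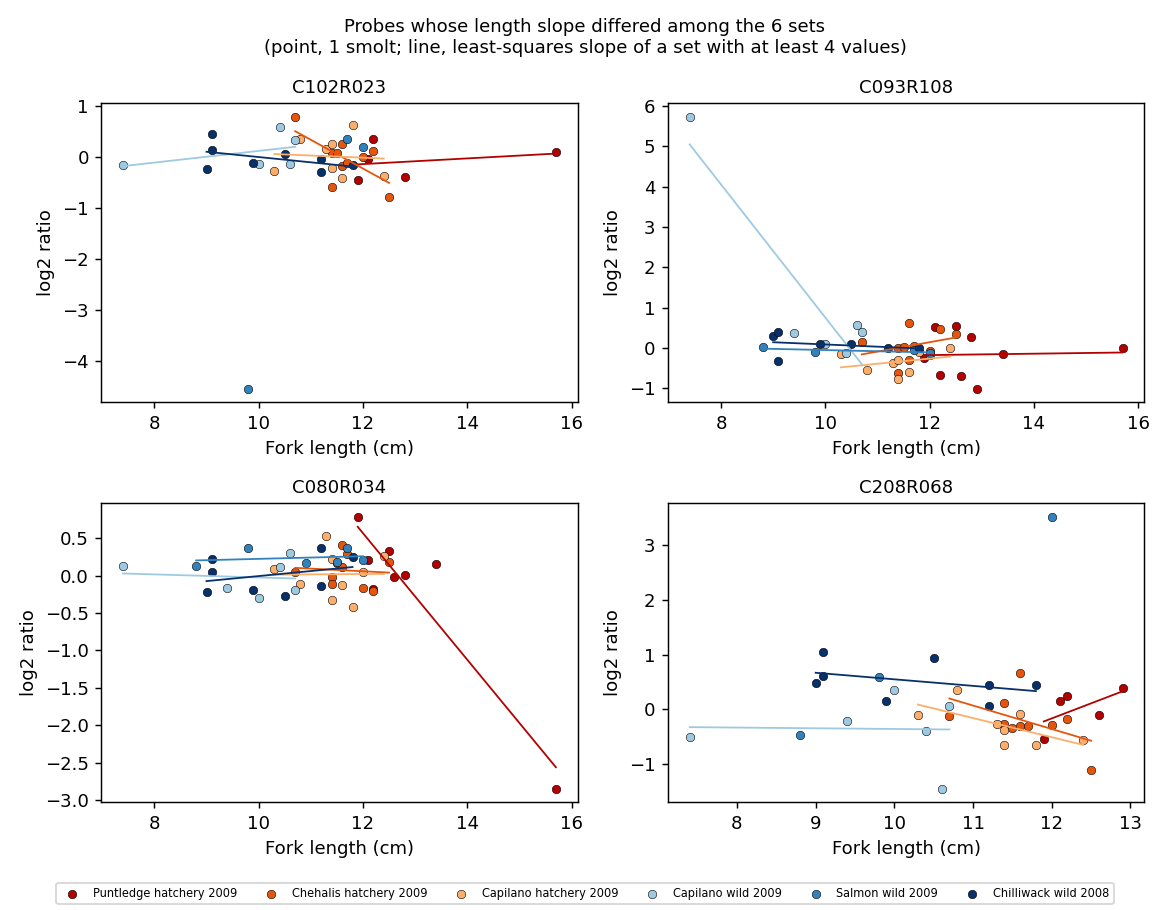
Log2 ratio (vertical) against fork length in cm (horizontal) for the 4 probes whose slopes differed among sets; points are smolts coloured by set, and lines are slopes of sets with at least 4 values. In each panel 1 smolt lies far from all others: -4.55 for C102R023, 5.73 for C093R108, -2.85 for C080R034 and 3.51 for C208R068.

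Far single values were found in other smolts too. A value more than 3 log2 units from the median of the other fish of its set was found at 0.0341% of the measured probes in the longest smolt and 0.123% in the shortest. Over all 48 smolts this share ran from 0.0106% to 0.878%, with a median of 0.0937%.

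Slopes estimated in different sets went together little over probes. Each rests on at most 10 fish, so a rho near 0 cannot show whether the slopes themselves differ. Over the 15 pairs of sets the Spearman's rho of their slopes ran from -0.33 to 0.23, with a median of 0.00044, and 8 pairs lay above 0. The lowest was between Chehalis and Puntledge, which share a slide, and the highest between the wild smolts of Capilano and Puntledge. Of the 18335 probes with a slope in every set 164 had a positive slope in all 6 and 292 a negative slope in all 6. Among so many probes some share a sign in all 6 sets by chance, and these counts were not tested against that.

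Measures of the whole array and the condition factor were set against length in the same way, each pair centred within sets, over 48 smolts. The 7 relations form a family, each with a two-sided permutation p from 100000 permutations within sets. Length is part of the condition factor, which is mass over length cubed, so a relation between them is partly built in. That relation was the strongest of the 7. Its Pearson's r was -0.17 (permutation p = 0.290, adjusted p = 0.698), and Spearman's rho was -0.31 (permutation p = 0.0320, adjusted p = 0.224). Without the longest and the shortest smolt, the 2 farthest from the median, r was -0.35 (permutation p = 0.0122, adjusted p = 0.0852). With all 48 smolts, r within the sets ran from -0.82 to 0.60, with 1 of 6 above 0. The share of empty cells had an r of 0.12 (permutation p = 0.385, adjusted p = 0.698) and a rho of 0.070 (permutation p = 0.613, adjusted p = 0.969). The array median, the interquartile range and the first 3 components had r between -0.13 and -0.049, and their lowest adjusted permutation p was 0.698. Without the longest and the shortest smolt r was 0.15 for the array median, 0.10 for the first and 0.11 for the second component, against -0.098, -0.049 and -0.082 with them, each with an adjusted permutation p of 0.702. The interquartile range then had -0.080 and the third component -0.0043. With all 48 smolts, the r of the array median ran from -0.88 to 0.76 over the sets. The first component, with 22.7% of the variance within sets, had an r of -0.049 (permutation p = 0.778, adjusted p = 0.778). No relation passed after adjustment, and without those 2 fish none did either.

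Ocean fish gave a yardstick for precision, since their lengths spread further within sets and the fish were more numerous. Their sets share a sea area, year and origin, and may mix fish of different rivers. Slopes of smolts and ocean fish thus do not hold the same things fixed. Fork length averaged 11.3 cm in smolts (SD within sets 0.975, n = 48), 18.0 cm in summer fish (2.21, n = 61) and 25.2 cm in fall fish (2.01, n = 74). In a fit of all 3 stages over 18836 probes the median SE was 0.066 log2 per cm in smolts, 0.025 in summer and 0.025 in fall. Length within sets passed in limma at 47 probes in summer fish (0.25%), 28 rising and 19 falling. In fall fish 0 passed (0%), with 1432 at an unadjusted p under 0.05.

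The difference of slopes, smolt minus summer, passed at 0 probes (0%) in limma, where 542 had an unadjusted p under 0.05, and smolt minus fall at 0 (0%), with 347. Probes that passed in summer fish were chosen by their summer slopes, so their summer medians are large by selection. The 28 probes that rose with length in summer fish had a median slope of 0.027 log2 per cm in smolts, 20 of them above 0, against 0.12 in summer. The 19 that fell in summer had a median of 0.0055 in smolts, 11 of them above 0, against -0.11 in summer. Over all probes 46.6% of smolt slopes were above 0. Of the 47 probes 6 had a 95% interval of the difference that left out 0. Over all 18836 probes 2.88% had an unadjusted limma p under 0.05 for that difference. The summer slopes that chose the 47 are part of the difference, so the count of 6 is raised by selection. Over the 47 the 95% interval of the difference reached a median of 0.15 log2 per cm to either side. Equal and absent slopes were thus both within reach for most of them. Smolt slopes over all 18836 probes had a Spearman's rho of 0.017 with those of summer and 0.15 with those of fall. Between summer and fall it was 0.20.

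**Figure D5:**
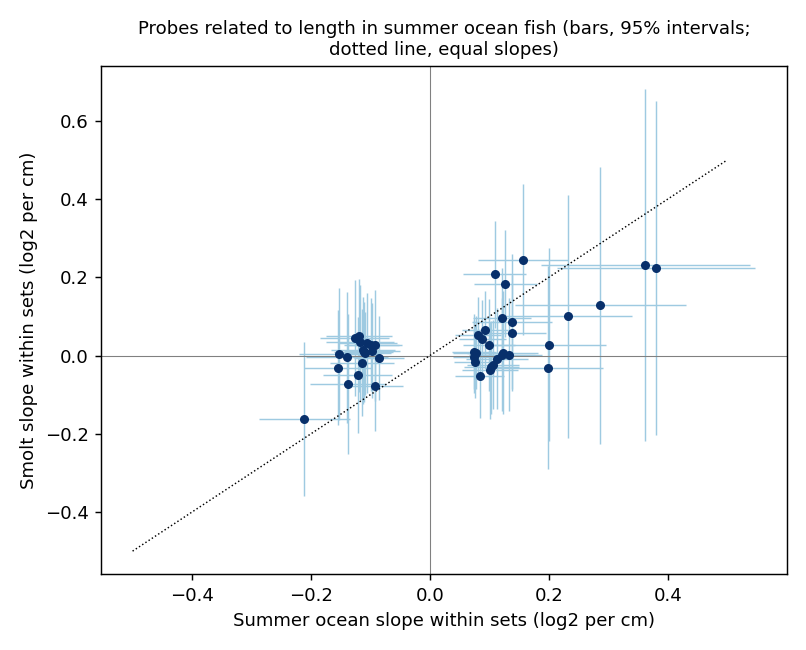
Slope on fork length within sets in smolts (vertical, log2 per cm) against that in summer ocean fish (horizontal) for the 47 probes that passed in summer fish, with 95% intervals; the dotted line marks equal slopes. The smolt intervals are wide, and 28 of the 47 smolt slopes have the sign of the summer slope.

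Of probes with values in at least 40 smolts, those with the smallest p for a stage difference in slope did not pass either. C050R150 had 0.31 log2 per cm (SE 0.072) in smolts, 0.026 (SE 0.026) in summer fish and 0.017 (SE 0.025) in fall fish. In Puntledge the longest smolt was at 2.18 in C050R150 and the others at -0.68 to 0.57. How far the smolt slope of C050R150 rests on that fish was not tested. C080R034 had -0.21 (SE 0.053) in smolts, 0.024 (SE 0.020) in summer fish and -0.0013 (SE 0.020) in fall fish, and its smolt slope rests on the longest smolt. Probes that differ between fall and summer fish were also read in smolts. They were called in limma over all summer and fall fish of the series, with stage as the only term. Area, year and origin were not held fixed there, so they are mixed with stage. The 2521 higher in fall had a median smolt slope of -0.0060 log2 per cm with 46.4% above 0, and the 2913 lower in fall a median of 0.0056 with 54.3% above 0. Over all 18836 probes the median was -0.0045 with 46.6% above 0.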

How the data were processed

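White muscle RNA of 221 coho salmon was hybridised with a muscle pool, per the labels' protocols, and the authors deposited normalized values, read here as log2 ratios of fish over pool. Over 372 probes of high variance the median log2 of the mean ratio was -0.034 for that reading, 1.64 for the reverse and 0.72 for natural logs. The authors deposited a second table, of unstated unit, with the same values for the smolts; it gave the control rows. Quantification, background correction and the filter behind empty cells are not given in the sources. Of the second table the columns of the other 173 fish were not used. The number of arrays limits the precision.

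Slopes were fitted with lmFit and eBayes (limma 3.58.1, R 4.3.3), with Benjamini-Hochberg adjustment over all tested probes. F-tests compared residual sums of squares of nested fits. The fits were tested on simulated data. Fish are separate animals. Replicates are numbered in accession order, and fish are given by length. Members, lists and tests were chosen with earlier results of these data known. Named probes are the 2 largest slopes each way among those past the threshold with at least 40 values (for length within sets, with 1 sign in at least 5 sets), or else the smallest p, said not to pass. Alternatives were other normalizations, filters, blocks, size measures, covariates and left-out fish. All columns of the first table were used where their stage was compared.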

Additional observations from a re-analysis of the deposited data

Results flagged for a closer look

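Of 92 sets of values examined for a fish far from the others of its set, 13 held 1. Chance gives about 1 in 20, and 11 of the 13 come from probes named for extreme slopes, so they are not independent.

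The longest Puntledge smolt, at 15.7 cm against 11.9 to 13.4 cm in the other 8, stood apart in length, in C050R150 (2.18 against -0.68 to 0.57) and in C080R034 (-2.85 against -0.18 to 0.78 in 7 others). The shortest wild smolt of Capilano stood apart in C093R108, at 5.73 against -0.12 to 0.56 in the other 5. The 11.9 cm smolt of Puntledge had 29.998% empty cells, against 47.5% to 59.3% in the others.

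Further fish stood apart in single probes. In Chilliwack, C070R068 was at -1.69 in a 9.1 cm smolt (the others -0.30 to 0.43), C155R084 at 4.50 in the 9.9 cm smolt (-2.58 to 0.42) and C184R150 at -0.19 in the 11.8 cm smolt (0.20 to 0.48). In Chehalis, C104R036 was at -1.99 in the 12.0 cm smolt (-4.58 to -3.30) and C105R105 at -0.99 in the 12.2 cm smolt (-0.15 to 0.31). C104R036 was at 2.75 in the 11.7 cm smolt of Salmon (-3.20 to -2.04). C184R150 was at -1.14 in the 10.3 cm hatchery smolt of Capilano (-0.22 to 0.58), and C196R045 at -0.40 in the 10.0 cm wild smolt of Capilano (-4.40 to -3.37).

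Slopes differed among the 6 sets at 4 probes in limma's moderated F-test, with an F of 23.4 for C102R023, 14.4 for C093R108, 13.003 for C080R034 and 10.9 for C208R068. Each call was lost without 1 smolt, as given above with its values.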

How the results depend on the processing

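The count of probes related to length within sets was 0 in 26 of 28 alternatives, and 0 (lowest and highest) when each of the 48 smolts was left out in turn. The second deposited table is among the 26. It holds the same smolt values, so its count could not differ. The fixed block for slide, in a fit over all fish of the series, gave 1. The fit with no covariate for area, year and origin gave 1073. Unadjusted counts were 251 to 1946 where it was 0. Origin, area or set as a random block in place of the set factor, and the fit without the 3 Puntledge smolts apart, were chosen after seeing the data, as were all alternatives of the pooled count. The pooled count of 1073 was 106 with slide as a random block and 608 without the shortest smolt. It was 0 without Puntledge, 10 without Chilliwack, 97 without the wild smolts of Capilano and 1627 without Salmon; 5 other alternatives gave 807 to 1484, and single smolts left out gave 549 to 2131. The count of 4 probes with slopes that differ among sets was 2 without the longest and the shortest smolt, 4 to 5 in the other 4 alternatives and 3 to 6 with single smolts left out. Hatchery minus wild, smolt minus fall and smolt minus summer gave 0 in limma under all 5 alternatives each, with 287 to 756 at an unadjusted p under 0.05. The slope of C070R068 was 0.072 to 0.31 and that of C105R105 was -0.25 to -0.10 over 8 alternatives each, and neither passed in any. For the 4 named probes called with sets pooled, only the set factor and single smolts left out were tried. Each probe kept its sign, and with the set factor none of the 4 passed. Of the relations, none of which passed, r turned to 0.15 for the array median, 0.10 for the first and 0.11 for the second component without the longest and the shortest smolt. No paired analysis was possible because replicate numbers follow the accession order. The causes of these changes were not tested. With 48 arrays and an SD of 0.975 cm within sets, slopes well above 0.1 log2 per cm could go uncalled. C070R068, at 0.27, did not pass. Probes with many empty cells rest on few fish per set.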
